A study of Mus musculus with 2 samples.

Results

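The Krüppel-like factors are transcription factors that bind CACCC and GC-rich elements in gene promoters through C-terminal zinc fingers. Their fingers are much alike, and the differing parts before the fingers recruit either corepressors, such as Sin3a and CtBP, or histone acetyltransferases. In neural and stem cells, members of the family are known for roles in self-renewal (Klf2, Klf4 and Klf5), in hormone responses of neurons (Klf9) and in TGF-beta signalling (Klf10 and Klf11). The 10 genes described here are Klf2, Klf3, Klf4, Klf5, Klf6, Klf9, Klf10, Klf11, Klf13 and Klf16, which were the rows with these symbols in a table of 16803 genes. They were selected on measured values, because Klf10 had one of the largest rises in the comparison described below. The values of that comparison are therefore a description of the members, with no test.

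RNA of cultured NE4C cells was sequenced to ask how gene expression differed after treatment with homocysteine thiolactone (HTL), a cyclic, reactive derivative of homocysteine that modifies lysine residues of proteins. NE4C is an established mouse neural stem cell line, a clone derived from the embryonic forebrain vesicles of an animal lacking p53. There was 1 library of untreated NE4C cells in normal culture, the control, and 1 library of NE4C cells treated with HTL. The labels give no dose, duration, passage or further genotype for either library, and no gene was targeted. With 1 library per group there was no replicate check, so each difference compares these 2 libraries and not the conditions, and no p-value is given. Intervals cover counting error only. Without molecular identifiers, copies of 1 molecule cannot be told from independent molecules, so even this error may be larger than the intervals show.

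The control library held 10350665 reads and the HTL library 9102076 reads, after the estimated number of reads per gene had been rounded. A gene at 0 reads may have had up to 3, which corresponded to 0.29 CPM (reads scaled to the library total) in the control and 0.33 CPM in the HTL library. Of the 11 neural stem cell markers examined, 10 in the control and 9 in the HTL library had an FPKM (reads scaled to transcript length and library size) of at least 1, and their summed FPKM was 231 and 160.0, respectively. Summed FPKM in the control and the HTL library was 0.72 and 1.97 for astrocyte markers and 1.55 and 1.19 for endothelial markers. It was 1.76 and 1.37 for blood and immune markers and 1.87 and 2.21 for fibroblast markers. Aldh1l1 (21 and 56 reads) gave 0.65 and 1.97 of the astrocyte sum. Oligodendrocyte markers summed to 3.92 and 4.40 FPKM, and neuronal markers to 20.4 and 27.9, of which Tubb3 gave 16.3 and 24.8. The neuronal markers Dcx (88 and 29 reads), Map2 (114 and 66) and Syp (8 and 4) had fewer reads in the HTL library. Rbfox3 (34 and 38 reads), like Tubb3, had more. The gene Pou5f1, singled out after its values had been seen, is a defining marker of pluripotent cells and not of neural stem cells. It ranked 32 in the control and 40 in the HTL library among all genes by FPKM. This is unlike the label of the line, but Nanog ranked 3070 and 4186 and Esrrb 12100 and 10386. The identity of the line was not tested. Pou5f1 had an FPKM of 1870 in the control and 2114 in the HTL library, with 25077 and 25570 reads that were in part split with similar sequences. Among the neural stem cell markers, Sox1 (48 and 12 reads), Sox2 (894 and 285), Sox3 (448 and 169) and Vim (1487 and 648, a log2 ratio of -1.01) were lower past 2-fold in the HTL library, Notch1 (124 and 231) was higher past 2-fold, and Nes had 1617 and 1365 reads. Whether these marker levels had a part in the values below, those of Klf2, Klf4, Klf5, Nanog and Esrrb included, was not tested, and in bulk RNA fewer cells of a type cannot be told apart from less RNA per cell.

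Among the members, Klf10 and Klf11 were higher in the HTL library, Klf2 was not detected in it, and Klf9, Klf13 and Klf16 differed little. A ratio was taken as the log2 of HTL over control in CPM, with 0.5 read added to each library, and 2-fold was used as the mark of a large difference. All 10 members passed the filter of at least 10 reads in both libraries together. Of these, 4 were higher past 2-fold (Klf10, Klf11, Klf4 and Klf5) and 1 was lower (Klf2, which passed the filter only through its control reads). Over all 13442 genes that passed the filter, 4.72% were higher and 12.2% were lower past 2-fold. Nothing is read from the members' counts against these shares, since the same contrast chose the members. The median log2 ratio was 0.48 over the members, 0.15 over the 9 members without Klf10, and -0.14 over all genes. Of all genes, 635 were higher and 1645 lower past 2-fold with column totals as the scale, while the TMM scaling of edgeR raised every log2 ratio by 0.14 and gave 875 higher and 1257 lower genes. The members counted as past 2-fold were the same 5 under each scaling tried. With FPKM + 1 as the measure, Klf4 (0.82) and Klf5 (0.94) were short of 2-fold, and a filter on a mean of at least 50 reads left out Klf2, Klf4 and Klf5.

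**Figure D1:**
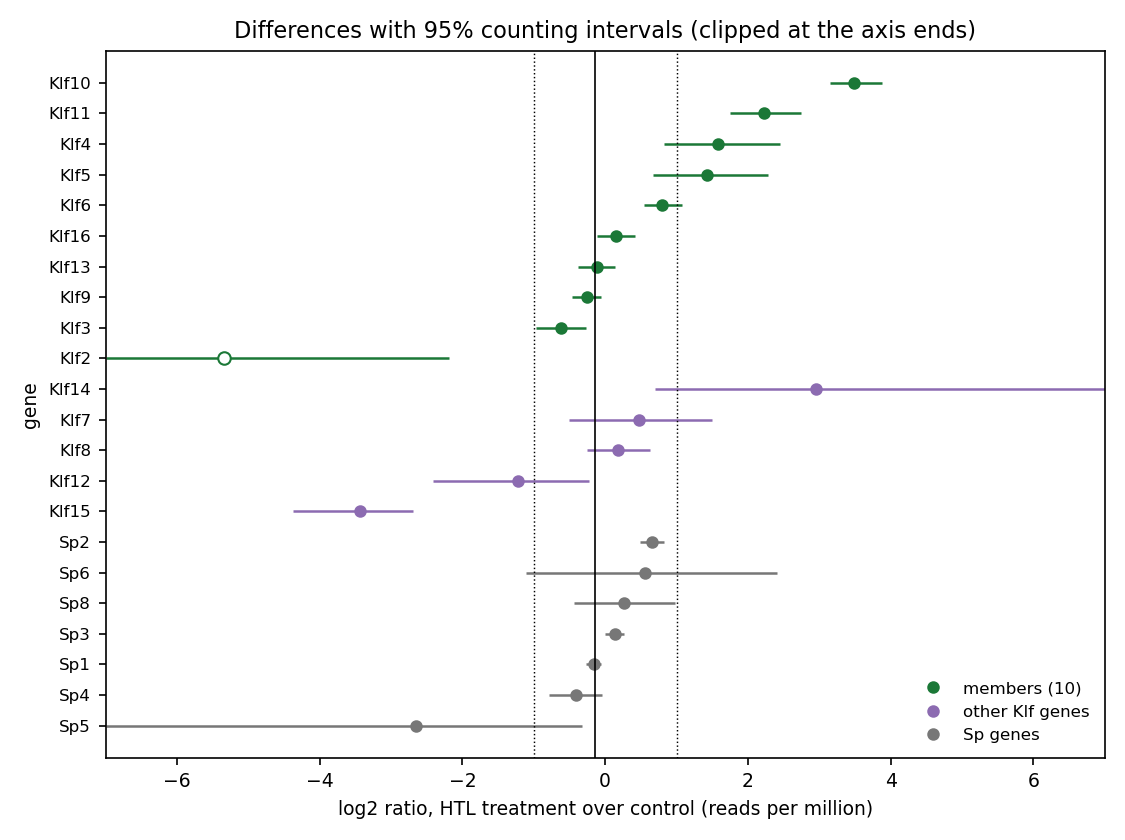
The log2 ratio of HTL over control (x axis) is drawn for each member, other Klf gene and Sp gene that passed the filter (y axis), with the 95% counting interval as a bar. The solid line is the median of all genes, the dotted lines mark 2-fold, and the open circle of Klf2 is a gene with 0 reads in the HTL library, whose position depends on the read added. Klf10 lies farthest right at 3.49 and Klf15 is the lowest gene with reads in both libraries at -3.43.

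The Sin3a-binding members are described first. Klf10 (gene ID 21847; NCBIM37 chromosome 15, 38221219 to 38230464, minus strand) was first found as an early gene induced by TGF-beta and acts mainly as a repressor. It had 71 reads in the control and 706 reads in the HTL library. Its FPKM was 2.23 (95% Poisson interval 1.74 to 2.81) in the control and 25.2 (23.4 to 27.1) in the HTL library. This placed Klf10 at percentile 41.4 of all genes by FPKM in the control and at percentile 83.3 in the HTL library, so it went from below the middle of the table to well above it. Its log2 ratio was 3.49 (95% Clopper-Pearson interval 3.15 to 3.87), an 11.2-fold difference. Over all 13442 genes that passed the filter, this ratio ranked 23 from the top, which restates the choice of the gene.

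Klf11 (gene ID 194655; chromosome 12, 25336236 to 25347639, plus strand) is the closest relative of Klf10 and a regulator of insulin and TGF-beta pathway genes. It had 44 reads in the control and 182 in the HTL library, and its FPKM was 1.06 (0.77 to 1.42) and 4.97 (4.27 to 5.75). The log2 ratio of Klf11 was 2.22 (1.75 to 2.74), or 4.66-fold, at rank 78 of the same 13442 genes. Both genes of the pair were therefore higher in the HTL library, and the counting intervals of their ratios were apart.

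The shorter Sin3a-binding members differed little. Klf9 (gene ID 16601; chromosome 19, 23215716 to 23241401, plus strand), a gene known to respond to thyroid hormone and glucocorticoids, had 467 and 343 reads and an FPKM of 13.7 and 11.4. Its log2 ratio was -0.26 (-0.47 to -0.056), which relative to the median gene was -0.12. Klf13 (gene ID 50794; chromosome 7, 71031237 to 71083801, minus strand), known for its role in T cell chemokine expression, was read 277 times in the control and 224 times in the HTL library, giving -0.12 (-0.38 to 0.14) on the log2 scale. Its ratio was 0.016 under TMM scaling and 0.0071 under the median of ratios, so no direction is given for it. Klf16 (gene ID 118445; chromosome 10, 80029874 to 80040041, minus strand), which is known from dopamine receptor gene regulation, was at 231 and 226 reads, with a ratio of 0.15 (-0.12 to 0.42) on the same scale.

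Among the activating members, Klf4 and Klf5 were higher and Klf2 was lower, all from low levels. Klf4 (gene ID 16600; chromosome 4, 55540013 to 55545347, minus strand), a reprogramming and epithelial differentiation factor, had 19 reads in the control and 51 in the HTL library. The FPKM of Klf4 was 0.60 (0.36 to 0.94) and 1.82 (1.36 to 2.39), and its log2 ratio was 1.58 (0.82 to 2.45). Klf5 (gene ID 12224; chromosome 14, 99697910 to 99712624, plus strand), a factor of intestinal and embryonic stem cells, had 20 and 48 reads, with an FPKM of 1.12 (0.68 to 1.73) and 3.06 (2.26 to 4.06). Its log2 ratio was 1.42 (0.67 to 2.28). The lower ends of both intervals lay below 1, so within counting error these genes may lie short of 2-fold.

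Klf2 (gene ID 16598; chromosome 8, 74842932 to 74845555, plus strand) is a gene induced by blood flow in endothelium and a factor of naive pluripotency. It had 21 reads in the control, an FPKM of 1.12 (0.69 to 1.71), and 0 reads in the HTL library. Against the 3 reads that a count of 0 allows, and with the control reads taken as they stand, Klf2 was at least 6.16-fold lower in the HTL library. With counting error in both libraries, the upper end of the 95% interval of its log2 ratio was -2.20. The endothelial markers summed to 1.55 FPKM in the control and 1.19 in the HTL library, and their part in the Klf2 value was not tested. Klf2, Klf4 and Klf5 together summed to 2.84 FPKM in the control and 4.89 in the HTL library.

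Klf6 (gene ID 23849; chromosome 13, 5860735 to 5869639, plus strand), a ubiquitous growth-restraining factor induced by injury, had 195 and 299 reads and an FPKM of 4.43 and 7.71. Its log2 ratio was 0.80 (0.54 to 1.07), which made it the member nearest to 2-fold from below, as Klf5 was from above. Klf3 (gene ID 16599; chromosome 5, 65194628 to 65221368, plus strand) is a repressor that binds CtBP. It had 195 reads in the control and 112 in the HTL library, an FPKM of 8.13 and 5.30, and a log2 ratio of -0.61 (-0.96 to -0.27). Klf3 and Klf6 thus began from the same number of reads and differed in opposite directions. Genes sorted into 10 bins by transcript length had median log2 ratios between -0.38 and -0.049 in the bins that held the members, and the part of length in the members' values was not tested.

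The order of the members by FPKM, a level per transcript length, was rearranged between the libraries. In the control, Klf9 was highest, followed by Klf16, Klf3, Klf6, Klf13, Klf10, Klf2, Klf5, Klf11 and Klf4. Neighbours whose intervals overlapped, and which are therefore not separated by counting error, were Klf16 and Klf3, Klf6 and Klf13, and the lowest 4 genes in turn. In the HTL library Klf10 was highest and separated from Klf9, which was followed by Klf16, Klf6, Klf3, Klf11, Klf13, Klf5, Klf4 and Klf2. In that library the intervals of neighbours were apart between Klf10 and Klf9, between Klf6 and Klf3, and between Klf4 and Klf2, which had no reads.

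**Figure D2:**
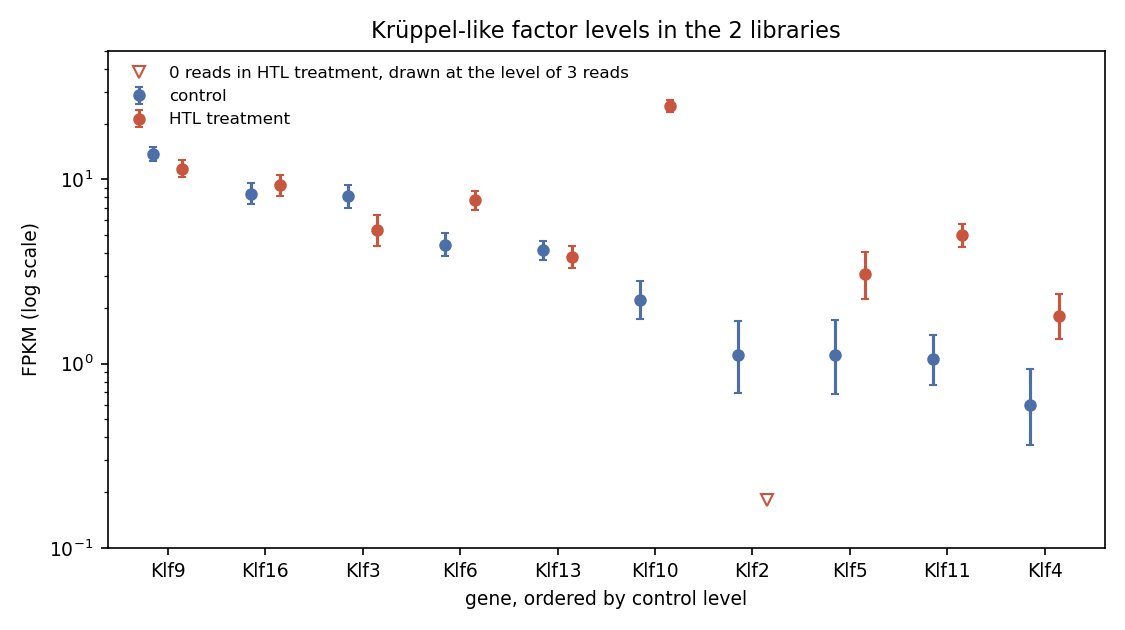
The FPKM of each member (y axis, log scale) is drawn for the control (blue) and HTL (red) libraries, with 95% Poisson intervals of the reads as bars. Klf10 moves from 2.23 to 25.2 and passes Klf9, which had 13.7 in the control, and the open triangle marks Klf2 at the level of 3 reads.

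The table held 16 Klf genes, and their make-up was compared by the share of their summed FPKM. Klf10 supplied 3.97% of it in the control and 32.4% in the HTL library. The share of Klf9 was 24.5% and 14.7%, that of Klf3 14.5% and 6.81%, and that of Klf11 1.89% and 6.39%. All Klf genes summed to 56.1 FPKM in the control and 77.8 in the HTL library, and without Klf10 to 53.9 and 52.6. The sum outside Klf10 was thus about level, with gains of Klf6, Klf11, Klf4 and Klf5 beside losses of Klf15, Klf3, Klf9 and Klf2. The FPKM intervals of Klf9 overlapped between the libraries (12.5 to 15.0 in the control and 10.3 to 12.7 in the HTL library). By corepressor class, the Sin3a-binding genes (Klf9, Klf10, Klf11, Klf13, Klf14 and Klf16) summed to 29.6 and 55.1 FPKM, and without Klf10 to 27.4 and 29.9. The CtBP-binding genes (Klf3, Klf8 and Klf12) summed to 10.6 and 7.70. The genes that act with acetyltransferases (Klf1, Klf2, Klf4, Klf5, Klf6 and Klf7) summed to 8.56 and 14.3.

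**Figure D3:**
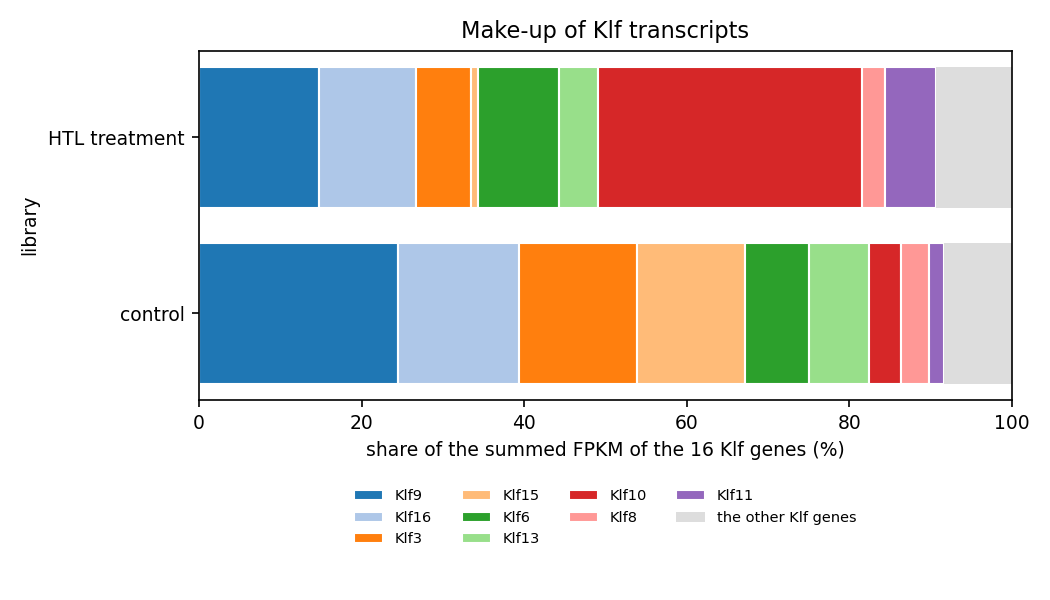
Each bar is 1 library and is divided by the share of the summed FPKM of the 16 Klf genes (x axis, percent). Grey pools Klf1, Klf2, Klf4, Klf5, Klf7, Klf12 and Klf14, and the red segment of Klf10 widens from 3.97% to 32.4% while that of Klf15 narrows from 13.3% to 0.861%.

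The 6 Klf genes outside the members did not all move with Klf10. Klf15 (gene ID 66277; chromosome 6, 90412570 to 90425232, plus strand), a glucocorticoid-induced regulator of glucose and amino acid metabolism, had 177 reads in the control and 14 in the HTL library. Its FPKM was 7.44 and 0.67, and its log2 ratio of -3.43 (-4.38 to -2.69) was a 10.8-fold difference, close in size to that of Klf10 and opposite in direction. Klf12, a CtBP-binding repressor, went from 30 to 11 reads (log2 ratio -1.23, -2.41 to -0.22). Klf14, an imprinted regulator in fat tissue, was at 1 and 10 reads (2.96, 0.69 to 8.95). Klf8 had 90 reads in each library (0.18, -0.25 to 0.62), Klf7 had 17 and 21 reads (0.48, with an interval that spanned 0), and Klf1, the erythroid factor, had 1 and 0 reads and did not pass the filter. Klf14 passed the filter only through its HTL reads.

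**Figure D4:**
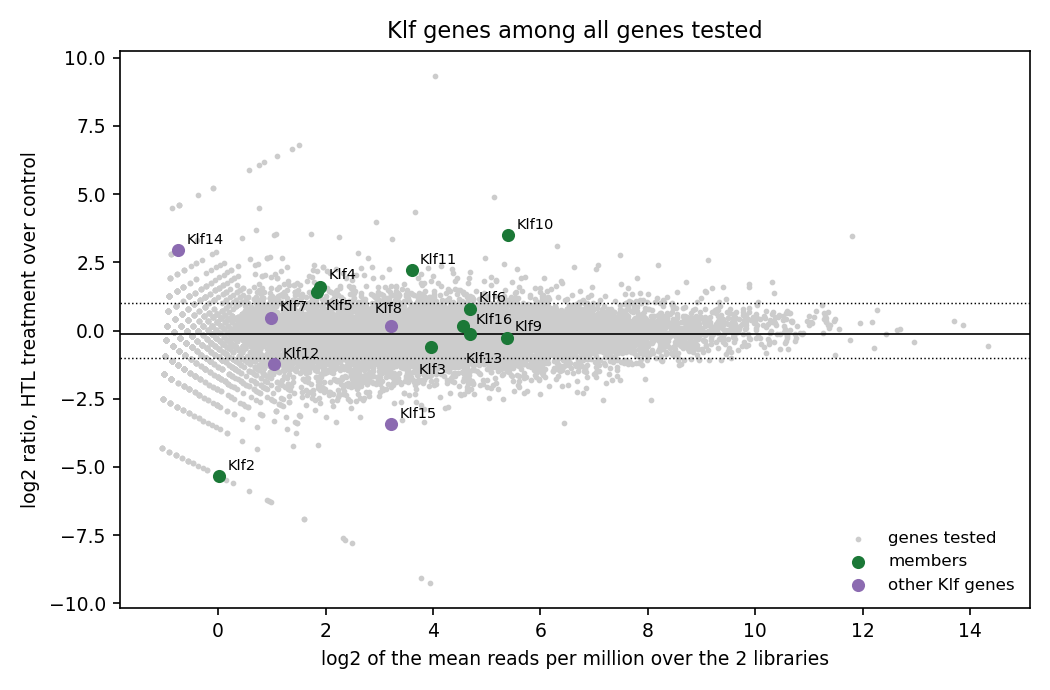
Every gene that passed the filter is a grey point, with the log2 of its mean CPM over both libraries on the x axis and its log2 ratio of HTL over control on the y axis; members are green and the other Klf genes purple. Klf10 (3.49) and Klf11 (2.22) lie at the upper edge of the cloud at their level, Klf15 (-3.43) lies at the lower edge, and Klf2 lies on the line of genes with 0 reads in the HTL library.

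The Sp genes share the finger type and bind GC boxes. Of 9 Sp genes in the table, 7 passed the filter, 0 were higher and 1 was lower past 2-fold, and their median log2 ratio was 0.13. Sp1, the broadly expressed founder of the group, had 1809 and 1421 reads (log2 ratio -0.16). Sp2 had 505 and 697 reads (0.65), Sp3 had 1007 and 970 (0.13) and Sp4 had 153 and 101 (-0.41). The gene past 2-fold was Sp5, a Wnt target, with 10 reads in the control and 1 in the HTL library (-2.66, -8.58 to -0.32). Sp5 passed the filter only through its control reads. Sp6 and Sp8 had log2 ratios of 0.56 and 0.26 from at most 37 reads a library, and Sp7 and Sp9 had 1 read each in the control and 0 in the HTL library.

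Because reads could in principle be divided between similar genes, the sequences of the family were compared. Proteins translated from the annotated coding sequences (GENCODE vM1, NCBIM37) held 3 zinc fingers near the C-terminal end, spanning 81 residues, in every Klf gene of the table. Over the 45 pairs of members, the fingers were identical at 60.5% to 91.4% of residues (median 69.1%), and the proteins before the fingers at 10.4% to 29.8% (median 17.0%). The longest run of coding bases shared by a pair was between 9 and 24 bases, with a median of 12. Of the 10 members, 9 had whole estimated counts in both libraries, and the exception was Klf13. No member's exons overlapped those of another annotated gene.

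Klf10 (479 residues) and Klf11 (502 residues) were identical at 70 of 81 finger residues (86.4%) and at 28.5% of the residues before them, and the longest coding run they shared was 13 bases. They also carry the same orthology entry in the table, K09209, while Klf9, Klf13, Klf14 and Klf16 carry K09208. Klf2 and Klf4 had the most similar fingers of all member pairs, with 74 of 81 residues identical (91.4%), and differed in opposite directions. Likeness of the fingers and the direction of the difference therefore did not always go together. Among the 16 proteins, the PVDL motif, through which CtBP is bound, was found only in Klf3, Klf8 and Klf12.

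**Figure D5:**
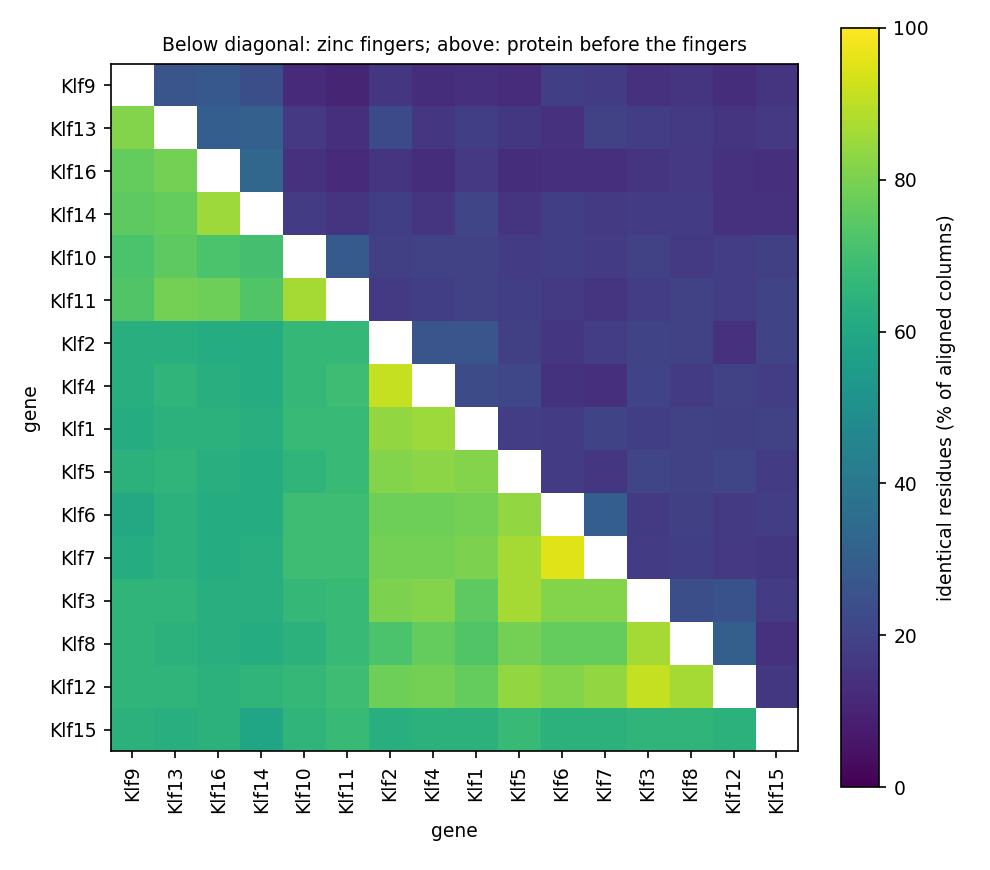
Each square is a pair of Klf proteins (both axes), coloured by the percent of identical residues, in the zinc fingers below the diagonal and in the part before the fingers above it. Finger squares of member pairs run from 60.5% to 91.4% and squares for the part before the fingers from 10.4% to 29.8%, with Klf10 and Klf11 among the most alike in both.

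Promoters are shown for 3 members that differed in opposite directions, to let the elements that KLF and Sp proteins bind be seen beside the values. They are the 250 bases before the start of each gene in RefSeq, located by an exact match to NCBIM37 and printed from 5′ to 3′ on the strand of the gene. Capitals mark GC boxes (GGGCGG or its reverse complement CCGCCC) and KLF core elements (CACCC or its reverse complement GGGTG). Klf11, which was 4.66-fold higher, holds 4 GC boxes and no CACCC at chr12:25335986-25336235, plus strand. Klf4, with a log2 ratio of 1.58, also holds 4 GC boxes and no CACCC, at chr4:55545348-55545597, minus strand. Klf2, with no reads in the HTL library, holds 2 GC boxes and 1 CACCC at chr8:74842711-74842960, plus strand, a window that reaches past the gene start in GENCODE vM1.
Klf11: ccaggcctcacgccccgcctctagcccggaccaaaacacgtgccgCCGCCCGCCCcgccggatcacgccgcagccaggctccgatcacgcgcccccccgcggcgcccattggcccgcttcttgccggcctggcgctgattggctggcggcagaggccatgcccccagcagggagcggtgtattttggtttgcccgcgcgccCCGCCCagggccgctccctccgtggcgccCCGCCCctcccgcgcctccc
Klf4: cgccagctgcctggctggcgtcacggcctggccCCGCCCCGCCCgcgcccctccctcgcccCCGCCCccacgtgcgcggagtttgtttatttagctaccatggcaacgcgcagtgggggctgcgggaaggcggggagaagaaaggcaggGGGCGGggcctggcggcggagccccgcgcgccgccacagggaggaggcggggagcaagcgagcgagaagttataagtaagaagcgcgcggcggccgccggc
Klf2: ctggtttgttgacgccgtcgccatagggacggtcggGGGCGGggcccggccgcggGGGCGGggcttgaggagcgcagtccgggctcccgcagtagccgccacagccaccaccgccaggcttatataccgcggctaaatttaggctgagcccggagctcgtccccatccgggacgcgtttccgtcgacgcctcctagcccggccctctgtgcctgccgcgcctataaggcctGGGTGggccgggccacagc

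RefSeq windows were available for 7 of the 10 members, which were Klf2, Klf3, Klf4, Klf6, Klf9, Klf11 and Klf13. Klf5, Klf10 and Klf16 had no window, so their promoters were not examined. On either strand, the GC box was found in 6 of the 7 windows, and in 32.7% of all 32851 windows of 250 bases. Klf3 had the most, with 6 GC boxes and 5 CACCC elements, and Klf9 had no GC box. The CACCC element was found in 4 of the 7 windows and in 52.0% of all. The printed windows were rich in G and C, with 76.8% for Klf11, 74% for Klf4 and 71.2% for Klf2, against a median of 52.4% over all windows. The E-box CACGTG was found in the windows of Klf4, Klf6 and Klf11 and in 6.02% of all windows. CCAAT was found in 4 member windows (33.8% of all), TGACG in 4 (17.8%) and TGANTCA only in that of Klf9 (6.75%). TGATGNAA and the CArG box were in 0 of the 7 windows and in 3.45% and 1.47% of all. A match says only that these letters occur in the window.

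Genes that act with the family or on it were described from gene lists, each read beside the shares of all genes given above. Of the genes named from them, Ncor1, Tgfbr1, Mef2b, Thrb, Siah1b and Nanog had fractional estimated counts. Under TMM scaling, the medians for TGF-beta, ERK5-MEF2 inputs, turnover, target and immediate early genes turned from below 0 to above 0. No direction is therefore given for these medians. Of 16 corepressors and coactivators, 0 were higher and 1 was lower past 2-fold, with a median log2 ratio of -0.19. The lower gene was Ncor1, a nuclear receptor corepressor, with 3488 reads in the control and 1267 in the HTL library (-1.28, -1.37 to -1.18), and Sin3b, a scaffold of histone deacetylases, had the highest ratio (547 and 760 reads, 0.66). The list thus held genes that were higher and genes that were lower, and its median does not show that its genes were level.

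TGF-beta signals through receptors and Smad proteins and is a known inducer of Klf10 and Klf11. Of 18 genes of this pathway that passed the filter, 0 were higher and 2 lower past 2-fold, and the median log2 ratio was -0.091. Among the ligands, Tgfb1 had 197 and 233 reads (0.43, 0.15 to 0.71), and Tgfb3 was past 2-fold with 82 and 14 reads (-2.33, -3.30 to -1.54). The co-receptor Tgfbr3 had 252 and 54 reads (-2.03, -2.49 to -1.61). The receptor Tgfbr1 had 584 and 558 reads (0.12), the transducer Smad3 had 583 and 352 (-0.54), the corepressor Tgif1 had 541 and 254 (-0.90), and the inhibitory Smad7, which Klf10 is known to repress, had 248 and 159 (-0.45). In the other direction, Smad4 (854 and 910 reads, 0.28), Smurf1 (492 and 574, 0.41) and Ski (726 and 717, 0.17) had intervals above 0.

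Klf2 and Klf4 are known targets of the ERK5 kinase and MEF2 factors, Klf9 and Klf15 of nuclear receptors, and Klf10 and Klf9 of the clock. Of 16 genes of these inputs, 1 was higher and 3 were lower past 2-fold, with a median of -0.059. Mef2b was higher, with 58 and 134 reads (1.39), and Mef2c (103 and 28 reads, -1.68), the thyroid hormone receptor Thrb (84 and 27, -1.44) and the clock gene Per3 (85 and 31, -1.26) were lower. Per1, a clock gene that glucocorticoids also induce, had 766 and 454 reads (-0.57), and Mef2a had the highest ratio among the better covered genes (0.32). The clock genes Arntl (0.015), Per2 (-0.027) and Clock (-0.085) had intervals that spanned 0. So did Mapk7, the gene of ERK5 (-0.10), and Map2k5 (-0.041). Of 15 genes for KLF protein turnover, 1 was higher and 0 lower past 2-fold, with a median of -0.064. It was the ubiquitin ligase Siah2, with 32 and 137 reads (2.26, 1.72 to 2.89), while Wwp1, a ligase for Klf2 and Klf5, had 467 and 232 reads (-0.82) and Siah1b had 242 and 386 (0.86).

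Of 25 reported KLF target genes, 23 were in the table and 20 passed the filter, of which 3 were higher and 0 lower past 2-fold, with a median of -0.069. The 3 genes were Esrrb, a pluripotency gene, with 28 and 54 reads (1.12, 0.45 to 1.85), the cell cycle inhibitor Cdkn1a with 8 and 16 (1.13, -0.12 to 2.62), and Trp53 with 3 and 7 (1.27, -0.72 to 3.99). Only the interval of Esrrb lay above 0, and the line came from an animal lacking p53, the product of Trp53. Ccnd1, a cyclin of the early cell cycle, had the lowest ratio of the better covered genes, with 547 and 282 reads (-0.77, -0.98 to -0.56). Nanog, a target of Klf2, Klf4 and Klf5, had 500 and 275 reads (-0.68, -0.89 to -0.46).

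Klf4, Klf6 and Klf10 are also known as early response genes, so 22 immediate early genes were listed. Of the 20 that passed the filter, 1 was higher and 4 were lower past 2-fold, with a median of -0.11. The higher gene was Atf3, a stress-induced factor, with 128 reads in the control and 612 in the HTL library (2.44, 2.17 to 2.73). Myc had 538 and 111 reads (-2.09, -2.40 to -1.79), Ier3 had 128 and 42 (-1.41), and Ctgf and Fosl1 were past 2-fold from at most 27 reads. Short of 2-fold, Jund (591 and 901 reads, 0.79), Egr1 (42 and 63, 0.76), Ier2 (330 and 451, 0.64), Jun (128 and 175, 0.63) Srf (692 and 895, 0.56) and Dusp1 (124 and 141, 0.37) had intervals above 0. Also short of 2-fold, Btg2 (41 and 18 reads, -0.98, -1.89 to -0.17) had an interval below 0. Junb had 75 and 46 reads (-0.52, -1.08 to 0.03).

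The 5 genes whose levels were most like those of Klf10, by the Euclidean distance of log2 CPM over the 2 libraries, were Arrdc4, Atf3, Ddit3, Sdf2l1 and 1810032O08Rik. Arrdc4, an arrestin-domain gene, was nearest, with 88 and 494 reads, a log2 ratio of 2.67 and a distance of 0.600. Atf3 followed at 0.870, and Ddit3, a stress-induced factor of the C/EBP family, with 98 and 385 reads at 0.989. Sdf2l1, an endoplasmic reticulum protein, had 109 and 369 reads (distance 1.12), and 1810032O08Rik had 143 and 493 (1.13). Klf10 had both fewer control reads and more HTL reads than each of these genes. With 2 libraries, such likeness says that levels were close in both and nothing more.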

How the data were processed

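Total RNA from 1 control and 1 HTL-treated culture of NE4C was prepared with a TruSeq kit and sequenced on BGISEQ, per the labels. The authors deposited 1 table for both libraries. Its estimated counts per gene came from RSEM, per the study's methods, and its FPKM values were scaled by the authors to transcript length (in bases) and library size, with 0.01 as the lowest value. The submitters' processing notes name the genome build mm9, and the mapper, annotation and use of strand are not given in the sources used here. The authors' log2 ratio, p-value and FDR columns hold their own comparison and were not used. In the deposited table, 21.8% of control and 20.2% of HTL estimated counts were fractional.

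Estimated counts were rounded and scaled to column totals, with 0.5 read added for ratios. Genes were kept if the libraries had 10 or more reads in sum (13442 genes). Levels carry exact Poisson intervals and ratios Clopper-Pearson intervals (95%). Quasi-likelihood (edgeR 4.0.16) and DESeq2 (1.42.0) tests could not be fitted without replicates, so these tools gave scalings only (TMM, upper quartile, median of ratios). The ratio and interval code was tested on simulated data. The other alternatives were 5 reads added, FPKM + 1, no filter, a mean of at least 50 reads, cutoffs of 1.5-fold and 4-fold, an added binomial adjusted p of at most 0.001, and the median without Klf10. Named were all members, every other Klf and Sp gene, from each other list the highest and lowest gene and those past 2-fold with a mean of at least 100 reads, and the 5 genes nearest to Klf10. Other named genes, among them Pou5f1, Nanog and list genes with fewer reads, were chosen after their values were seen. The members and the 8 gene lists were chosen with earlier results of these data known. Proteins were aligned with Biopython 1.88. Gene positions are from GENCODE vM1 on NCBIM37, which is mm9. RefSeq promoter windows come from GRCm38.p6 and were placed on NCBIM37 only where the sequence matched exactly once.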

Additional observations from a re-analysis of the deposited data

How the results depend on the processing

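The members past 2-fold stayed at 5 under every scaling, with 5 reads added and without the filter. They were 3 with FPKM + 1 (Klf10, Klf11 and Klf2), 3 at a 4-fold cutoff, 7 at a 1.5-fold cutoff (with Klf3 and Klf6 added) and 2 where the mean had to reach 50 reads (Klf10 and Klf11). The log2 ratio of Klf10 was 3.02 with FPKM + 1, a scale that shrinks low genes, and those of Klf2, Klf4 and Klf11 were -1.07, 0.82 and 1.54. Of 50 member ratios under the alternatives, 46 stayed within their counting interval and 0 past 2-fold changed sign. The members' median fell to 0.15 without Klf10. Genes past 2-fold numbered 2280, and 852 with FPKM + 1, 4541 without the filter, 1157 where the mean had to reach 50 reads, 5088 at 1.5-fold, 415 at 4-fold and 1450 with an added adjusted p of at most 0.001 (exact binomial test, Benjamini-Hochberg, counting error only). The gene lists held 20 genes past 2-fold, and 9 with FPKM + 1. No paired analysis was possible because only 1 library of each kind exists here, which also means that none could be left out. Depth limits Klf2, Klf4 and Klf5, which had at most 51 reads in a library.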
